A study of Mus musculus with 12 samples.

Results

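The cAMP pathway that holds mouse oocytes in prophase I was described through 10 genes, each taken by its symbol from a table of 24259 gene symbols, and all 10 symbols were found. They cover a receptor (*Gpr3*), its close relative *Gpr12*, the stimulatory G protein (*Gnas*), an adenylyl cyclase (*Adcy3*), the phosphodiesterase *Pde3a*, and the catalytic (*Prkaca*, *Prkacb*) and regulatory (*Prkar1a*, *Prkar2a*, *Prkar2b*) subunits of protein kinase A (PKA). In a fully grown oocyte, GPR3 is active without an added ligand and works through Gs to keep adenylyl cyclase making cAMP. cAMP frees the catalytic subunits of PKA from the regulatory ones, and active PKA holds CDK1 and cyclin B in check through WEE2 and CDC25B. cGMP that enters from cumulus cells through gap junctions inhibits PDE3A, so that cAMP is not broken down until the luteinizing hormone surge lowers cGMP.

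RNA came from germinal vesicle oocytes of 3-week-old mice primed with 5 IU of pregnant mare serum gonadotropin (PMSG) and collected 46 h later. WT mice were compared with *Lsm14b*-KO mice, which carry the tm1a allele, a reporter-tagged insertion, in every cell from conception, so that the oocytes had also grown without LSM14B, an RNA-binding protein of stored maternal mRNA. Lysates of about 1500 oocytes were spun through sucrose gradients, and fractions 1 to 10 were pooled as the RNP pool (free and stored mRNA) and fractions 11 to 28 as the polysome pool (mRNA carrying ribosomes). The 4 groups, WT RNP, WT polysome, KO RNP and KO polysome, had 3 libraries each. Levels are given as FPKM, fragments per kilobase of transcript scaled to the mapped fragments of the library, which can be set side by side between genes because they are divided by length. FPKM is relative to the RNA of its own pool, so a ratio of pools is not the share of molecules on ribosomes.

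Steps in the low values put the depth at between 4.89 M and 7.93 M fragments a library, with the KO polysome libraries the shallowest by their median (5.13 M). This is a rough estimate, since between 41.3% and 61.9% of low values lay within 0.1 of a whole fragment. In the KO polysome library of replicate 2, the 10 most abundant genes made up 34.7% of summed FPKM, mostly through *Mir300* at 170809 FPKM, against 14.7% or less in the other libraries. The labels do not say that libraries of a group came from separate animals, so the p-values measure only the spread between these libraries, which may be technical.

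The targeted gene was low where the labels said KO. *Lsm14b* was at 34.6, 29.3 and 27.4 FPKM in WT RNP and 11.3, 15.3 and 13.2 FPKM in WT polysomes, and at 0.893, 0.0627 and 0 FPKM in KO RNP and 0.260, 0 and 0.0876 FPKM in KO polysomes. The highest KO value was under the lowest WT value in both pools (p = 0.1 in an exact two-sided permutation test, the smallest that 3 libraries against 3 allow).

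All 10 oocyte markers, among them *Gdf9* and *Zp3*, were detected in every library, and *Gdf9* was at 14480 FPKM or more in each polysome library. Granulosa and cumulus cells, which surround the oocyte, were checked with 18 markers. Their summed level was 75.2, 25.7 and 43.7 FPKM in WT polysomes and 88.1, 97.2 and 108 FPKM in KO polysomes. In the RNP pool it was 35.6, 31.4 and 35.6 FPKM in WT and 66.1, 61.2 and 41.6 FPKM in KO. The KO libraries were thus above the WT libraries in both pools. *Inha* was the most abundant of them in KO polysomes at 51.4, 39.4 and 39.5 FPKM, against 9.58, 0 and 8.11 FPKM in WT polysomes, and *Cyp19a1* was the most abundant in the other 3 groups. *Cyp19a1* did not follow *Inha*, at 62.0, 19.0 and 32.0 FPKM in WT polysomes and 14.6, 23.5 and 34.5 FPKM in KO polysomes, with overlap. *Fshr* was at 0, 0 and 0.700 FPKM in WT polysomes and 4.36, 3.14 and 6.74 FPKM in KO polysomes. In RNP *Fshr* was at 4.12, 5.62 and 5.33 FPKM in WT and 13.6, 9.77 and 7.57 FPKM in KO. *Inhba* was at 0.252, 0 and 0 FPKM in WT polysomes and 3.72, 8.27 and 11.9 FPKM in KO polysomes. *Nr5a2* overlapped between genotypes in both pools. Of the 18 markers, 6 were under 1 FPKM in all 12 libraries (*Amhr2*, *Cyp11a1*, *Npr2*, *Fst*, *Ptgs2* and *Tnfaip6*). Of 10 markers of theca, stroma and vessels 6 were under 1 FPKM in all libraries and *Pecam1* was the most abundant, and of 7 blood and immune markers 5 were listed at 0 in all. More somatic cells, more RNA per somatic cell and another source of these transcripts cannot be told apart in such bulk samples. Most of the 10 pathway genes are active in many cell types, and the part of somatic RNA in their changes was not tested.

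Of the 10 genes, 8 had at least 1 FPKM in at least 3 libraries of each comparison and were tested. The other 2, *Gpr12* and *Adcy3*, were not. Tests were linear models in limma on log2(FPKM + 1), which understate the change of weakly expressed genes, with Benjamini-Hochberg adjustment over all genes tested and a threshold of 0.05.

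The 3′ end of a maternal mRNA is where its poly(A) tail is lengthened or shortened in the oocyte, so the annotated ends of 8 of the 10 genes were searched (those of *Gpr3* and *Gnas* are left out), and those of 3 genes with a called difference are shown. The sequences are those of GENCODE M21 transcripts (GRCm38), on the transcript's strand, with the polyadenylation hexamers AATAAA and ATTAAA and the cytoplasmic polyadenylation motifs TTTTAT and TTTTAAT in capitals. *Prkar1a* is shown at chr11:109669606-109669635 (plus strand), *Prkar2a* at chr9:108750391-108750420 (plus) and *Prkacb* at chr3:146729593-146729622 (minus), each in the 3′ UTR of the last exon.
Prkar1a: tgtctcaatggtaggtcacagAATAAAaaa
Prkar2a: ggcccggcttcactcttgactAATAAAggc
Prkacb: TTTTAATtcatcaataaccgcaaaATTAAA

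In the last 100 bases of the 3′ UTR, searched on the transcript's strand only, 7 of these 8 genes held a hexamer, against 78.8% of 18184 coding genes of the table. *Prkar1a*, *Prkar2a* and *Prkacb* held 1 each. A cytoplasmic polyadenylation motif was in the windows of *Adcy3*, *Prkacb* and *Prkar2b*, 3 of 8 genes, against 18.2% of coding genes. The 2 kinds of motif can share bases, as they do in *Adcy3*. *Pde3a*, with the longest 3′ UTR of the 8 at 8555 bases, held neither kind in this window, which says only that these letters were not there. The locus deposited for *Prkar2a* ends at chr9:108749511, before the stretch shown. That of *Pde3a* ends at chr6:141499351, before the annotated end of the gene. The matches are descriptions of the annotated ends, and which ends the oocyte transcripts use was not measured.

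The receptor fell in the KO in both pools. *Gpr3* (chr4:133209340-133212536, GRCm38) was at 48.8, 38.9 and 67.1 FPKM in WT polysomes and 25.2, 27.4 and 15.8 FPKM in KO polysomes. In the RNP pool it was at 28.8, 36.1 and 58.8 FPKM in WT and 18.2, 20.9 and 23.5 FPKM in KO. Every KO library was below every WT library of its pool, and the WT libraries were the more scattered. The WT mean was 2.26 times the KO mean in polysomes and 1.98 times in RNP. On the log2(FPKM + 1) scale, the polysome change of *Gpr3* was -1.14 (standard error 0.29, adjusted p = 0.0427, limma with Benjamini-Hochberg adjustment) and its RNP change was -0.89 (standard error 0.26, adjusted p = 0.0387, limma with Benjamini-Hochberg adjustment). The polysome call was lost when any library but WT replicate 2 was left out (adjusted p from 0.0756 to 0.132, limma with Benjamini-Hochberg adjustment), and the RNP call when any library but WT replicate 1 was left out (adjusted p from 0.0545 to 0.123, limma with Benjamini-Hochberg adjustment). The polysome call was also lost with a pseudocount of 0.1, with no filter, after quantile normalization and with no intensity trend, and the RNP call with no filter and with no intensity trend, while the direction held in all of them.

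Of the exon bases of *Gpr3*, 7.46% overlap those of *Cd164l2* on the opposite strand, and the deposited values do not state a use of strand. *Cd164l2* was abundant, at 237, 237 and 302 FPKM in WT polysomes and 334, 245 and 247 FPKM in KO polysomes. The WT and KO ranges of *Cd164l2* overlapped in polysomes. In RNP, *Cd164l2* was at 294, 266 and 241 FPKM in WT and 321, 318 and 373 FPKM in KO, higher in the KO. The part of *Cd164l2* in the *Gpr3* values was not tested. *Gpr12*, the related receptor, was listed at 0.792, 2.75 and 0 FPKM in WT RNP, 0.510, 0.430 and 0 in KO RNP, and 0 in all 6 polysome libraries (RNP pool, exact two-sided permutation test, p = 0.5). An exact 0 can be a failed estimate here, since *Gapdh*, *Ppia*, *Rps6* and *Rpl3* were also listed at 0 in some libraries.

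The G protein rose in KO polysomes. *Gnas* (chr2:174284320-174346744), which encodes the stimulatory Gα subunit that links receptors to adenylyl cyclase, was at 108, 89.7 and 89.5 FPKM in WT polysomes and 209, 211 and 167 FPKM in KO polysomes. In RNP it was at 20.1, 29.7 and 23.4 FPKM in WT and 47.7, 29.9 and 35.5 FPKM in KO. The groups did not overlap in either pool, but in RNP the lowest KO value was close to the highest WT value. The polysome change of *Gnas* on the log2(FPKM + 1) scale was 1.02 (standard error 0.16, adjusted p = 0.00691, limma with Benjamini-Hochberg adjustment), and its RNP difference of 0.60 did not pass (standard error 0.23, adjusted p = 0.0917, limma with Benjamini-Hochberg adjustment). The polysome call held with each library left out in turn, and was lost with no intensity trend (adjusted p = 0.0571, limma with Benjamini-Hochberg adjustment, over a range of 0.00431 to 0.0571 for all alternatives).

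*Gnas* is an imprinted complex locus whose 24 annotated transcripts include forms with other first exons, and 1 FPKM was deposited for the locus. Of its exon bases, 8.83% overlap *Nespas*, an antisense RNA listed at 0 in all 6 polysome libraries, at 0, 4.35 and 0 FPKM in WT RNP and at 1.47, 1.795 and 2.82 FPKM in KO RNP. Reads of the shared bases cannot be told apart, and the part of *Nespas* in the *Gnas* values was not tested. The summed granulosa markers were higher in the same KO libraries.

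*Adcy3*, the cyclase on the list, was listed at 0 in 11 of 12 libraries and at 0.0360 FPKM in KO RNP replicate 3. Of its exon bases, 22.1% overlap *Cenpo*, which is on the other strand and was at between 55.6 and 83.9 FPKM, and the locus deposited for *Adcy3* spans *Cenpo* and *Ptrhd1* as well. The value thus gives no level for this cyclase. Among the 9 other adenylyl cyclase genes, *Adcy5* had the highest mean level. It was at 8.65, 9.39 and 4.18 FPKM in WT polysomes, 6.89, 4.71 and 5.80 in KO polysomes, 8.96, 10.6 and 9.65 in WT RNP, and 6.87, 5.15 and 5.41 in KO RNP. *Adcy5* was thus lower in KO than in WT in RNP in every library, and overlapped in polysomes. *Adcy9* was at 8.48, 6.69 and 6.15 FPKM in WT polysomes and 2.33, 3.36 and 2.95 FPKM in KO polysomes, without overlap. *Adcy5* and *Adcy9* together made up between 60.0% and 87.1% of the summed cyclase FPKM in a library. Neither passed the test between genotypes.

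*Pde3a* (chr6:141249269-141507448), which encodes the phosphodiesterase that cGMP inhibits, was at 9.55, 16.5 and 14.2 FPKM in WT polysomes and 15.3, 16.1 and 18.5 FPKM in KO polysomes. In RNP it was at 7.42, 11.3 and 12.2 FPKM in WT and 9.42, 15.2 and 12.2 FPKM in KO. The groups overlapped in both pools. The difference on the log2 scale was 0.32 in polysomes, with a 95% interval of -0.39 to 1.02 (adjusted p = 0.571, limma with Benjamini-Hochberg adjustment), and 0.23 in RNP, with an interval of -0.41 to 0.88. With each library left out in turn, the difference ranged from 0.11 to 0.47 in polysomes and from 0.03 to 0.40 in RNP. The lowest value was without WT replicate 1 of the pool. The 95% intervals do not exclude a rise of the size seen for *Prkar1a*.

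**Figure D1:**
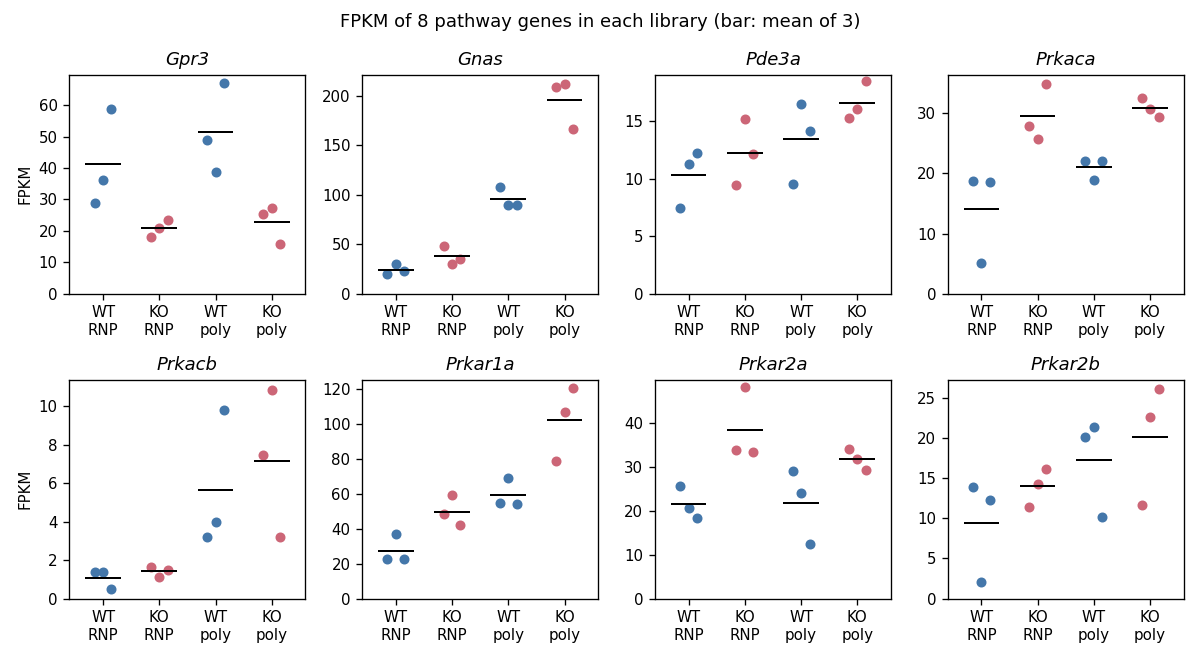
FPKM (y axis, linear from 0) of the 8 tested genes in each of the 12 libraries, with 1 point a library, the mean of 3 as a bar, WT in blue and KO in red. KO points of Gpr3 lie below the WT points of the same pool, KO points of Gnas, Prkaca, Prkar1a and Prkar2a lie above them, and those of Pde3a, Prkacb and Prkar2b overlap them.

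The regulatory subunit RIα was higher in the KO in both pools. *Prkar1a* (chr11:109649405-109669656), which encodes RIα, was at 54.4, 68.7 and 53.9 FPKM in WT polysomes and 78.4, 107 and 120 FPKM in KO polysomes. In RNP it was at 22.7, 37.0 and 22.6 FPKM in WT and 48.1, 59.0 and 41.9 FPKM in KO. Every KO library was above every WT library of its pool. The polysome change of *Prkar1a* was 0.77 on the log2 scale (standard error 0.21, adjusted p = 0.0493, limma with Benjamini-Hochberg adjustment) and its RNP change was 0.86 (standard error 0.23, adjusted p = 0.0272, limma with Benjamini-Hochberg adjustment). In polysomes the call was lost when any library but KO replicate 1 was left out (adjusted p from 0.0502 to 0.181, limma with Benjamini-Hochberg adjustment), and with a pseudocount of 0.1, no filter or no intensity trend. In RNP it was lost without WT replicate 1 or 3 or KO replicate 1 or 2 (adjusted p from 0.0648 to 0.109, limma with Benjamini-Hochberg adjustment), with no filter and with no intensity trend.

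*Prkar2a* (chr9:108689314-108750436), which encodes RIIα, a subunit that A-kinase anchoring proteins tether in the cell, was at 25.5, 20.6 and 18.3 FPKM in WT RNP and 33.8, 48.0 and 33.3 FPKM in KO RNP. In polysomes it was at 28.9, 24.0 and 12.4 FPKM in WT and 34.0, 31.7 and 29.2 FPKM in KO. The groups did not overlap in either pool, and in polysomes the gap was narrow, between 28.9 and 29.2 FPKM. The change was 0.80 in RNP (standard error 0.21, adjusted p = 0.0264, limma with Benjamini-Hochberg adjustment) and 0.60 in polysomes, which did not pass (95% interval -0.13 to 1.33, adjusted p = 0.279, limma with Benjamini-Hochberg adjustment). Without WT polysome replicate 3 the polysome difference was 0.26. The RNP call was lost when any library but WT replicate 1 was left out (adjusted p from 0.0503 to 0.115, limma with Benjamini-Hochberg adjustment), with no filter and with no intensity trend. *Prkar2b* encodes RIIβ. It was at 20.1, 21.3 and 10.1 FPKM in WT polysomes, 11.6, 22.6 and 26.0 in KO polysomes, 13.9, 2.05 and 12.3 in WT RNP, and 11.4, 14.3 and 16.1 in KO RNP. Its groups overlapped in both pools, with WT RNP replicate 2 far below the rest.

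The catalytic subunit Cα had higher values in every KO library without passing the test. *Prkaca* (chr8:83972993-83996443) was at 22.0, 19.0 and 22.0 FPKM in WT polysomes and 32.6, 30.6 and 29.3 FPKM in KO polysomes. In RNP it was at 18.7, 5.07 and 18.6 FPKM in WT and 27.9, 25.7 and 34.9 FPKM in KO. WT RNP replicate 2 was the low one, as for *Prkar2b*. The difference was 0.54 in polysomes (95% interval 0.03 to 1.04, adjusted p = 0.166, limma with Benjamini-Hochberg adjustment) and 1.19 in RNP (95% interval 0.23 to 2.14, adjusted p = 0.0777, limma with Benjamini-Hochberg adjustment). Without WT RNP replicate 2, the RNP difference was 0.63, and without WT RNP replicate 3 it was 1.47 and passed (adjusted p = 0.0493, limma with Benjamini-Hochberg adjustment, over a range of 0.0460 to 0.198 for all alternatives). *Prkacb*, which encodes Cβ, was at 3.21, 3.96 and 9.82 FPKM in WT polysomes, 7.47, 10.9 and 3.19 in KO polysomes, 1.36, 1.36 and 0.478 in WT RNP, and 1.62, 1.13 and 1.49 in KO RNP. Its genotypes overlapped in both pools, and its polysome values were above its RNP values in every library of the same genotype.

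The subunits were also set against each other within each library. The summed regulatory FPKM was 3.10, 9.29 and 2.80 times the summed catalytic FPKM in WT RNP, and 4.10, 4.97 and 2.40 times in WT polysomes. In the KO it was 3.17, 4.52 and 2.51 times in RNP and 3.10, 3.89 and 5.40 times in polysomes. The genotypes overlapped in both pools, and the 9.29 of WT RNP replicate 2 comes with its low *Prkaca*. Without that library the WT RNP mean was 2.95 in place of 5.06. *Prkar1a* made up between 52.6% and 70.5% of regulatory FPKM in polysomes and between 36.5% and 62.0% in RNP. *Prkacb* made up between 9.82% and 30.8% of catalytic FPKM in polysomes and between 2.51% and 21.1% in RNP, where the highest share was again that of WT RNP replicate 2. These ratios are of mRNA and not of protein, and no test was made on them.

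**Figure D2:**
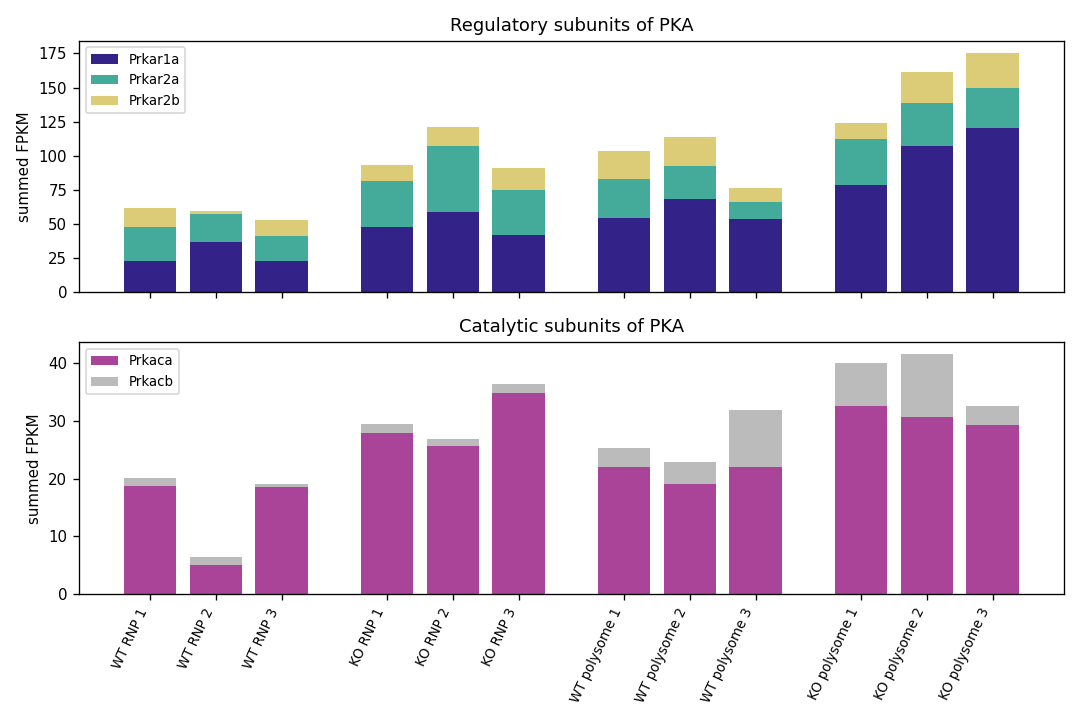
Summed FPKM (y axes, linear from 0) of the regulatory (top) and catalytic (bottom) PKA subunits in each library, stacked by gene. In the KO libraries the regulatory sum lay between 91.3 and 121 FPKM in RNP and between 124 and 176 FPKM in polysomes. Their catalytic sum lay between 26.9 and 36.4 FPKM in RNP and between 32.5 and 41.5 FPKM in polysomes. Both sums were above those of the WT libraries of the same pool. WT RNP 2 has the lowest catalytic sum, 6.42 FPKM.

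Over the tested genes of the pathway, 3 of 8 were called in polysomes, 2 higher (*Gnas*, *Prkar1a*) and 1 lower (*Gpr3*) in the KO, while 10.4% of 9536 genes were called in all, 5.64% higher and 4.73% lower. In RNP 3 of 8 were called, 2 higher (*Prkar1a*, *Prkar2a*) and 1 lower (*Gpr3*), where 20.7% of 9931 genes were called, 10.5% higher and 10.2% lower. The RNP share of calls is nearer to that of all genes than the polysome share, and with 8 genes neither sets the pathway apart. The balance of higher and lower calls over all genes moved with the library left out, and the reason was not tested. In polysomes it was 136 higher and 247 lower without KO replicate 3, and 247 higher and 275 lower without KO replicate 1. Without WT polysome replicate 1 it was 477 higher and 290 lower. In RNP it was 548 higher and 707 lower without KO replicate 1, and 1053 higher and 858 lower without WT replicate 3. The median log2 change of the 8 was 0.43 in polysomes and 0.70 in RNP, beside 0.10 and 0.05 for all genes tested. The genes were taken up with results known and filtered on level, so these medians are a description.

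The polysome-to-RNP ratio showed no genotype difference for these genes that passed the test. With the 12 libraries fitted together for a genotype-by-pool interaction, limma called 0 of 8 genes, and 0 had an unadjusted p under 0.05, while 0.237% of 10949 genes were called. The difference of log2 ratios, KO minus WT, was 0.42 for *Gnas* (95% interval -0.18 to 1.03), -0.25 for *Gpr3* (-1.14 to 0.64), -0.65 for *Prkaca* (-1.77 to 0.46), -0.20 for *Prkar2a* (-1.06 to 0.66) and -0.09 for *Prkar1a* (-0.79 to 0.61). Single libraries moved several of these values: with each left out in turn, that of *Prkaca* ranged from -0.94 to -0.09 (the latter without WT RNP replicate 2) and that of *Gpr3* from -0.53 to -0.02. That *Gnas* passed in polysomes and not in RNP, and *Prkar2a* in RNP and not in polysomes, is thus not shown to be a difference between pools.

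**Figure D3:**
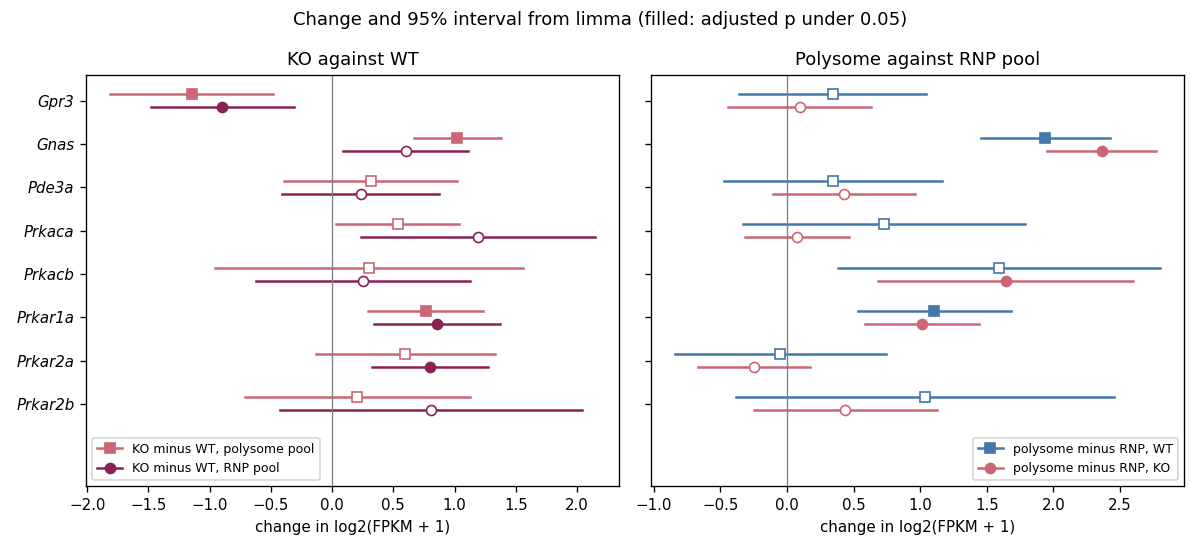
Change in log2(FPKM + 1) (x axis) of each gene with its 95% interval from limma, KO minus WT in each pool on the left and polysome minus RNP in each genotype on the right, with filled symbols for an adjusted p under 0.05. Gpr3 lies to the left of 0 between genotypes in both pools, and Gnas, Prkacb and Prkar1a lie to the right of 0 between pools in both genotypes.

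Between pools, *Gnas* and *Prkar1a* were higher in polysomes in both genotypes. The mean FPKM of *Gnas* was 95.6 ± 10.4 in polysomes and 24.4 ± 4.89 in RNP in WT, and 196 ± 25.1 and 37.7 ± 9.09 in KO (SD, n = 3), or 3.92 and 5.19 times. On the log2 scale this was 1.94 in WT (standard error 0.21, adjusted p = 0.000696, limma with Benjamini-Hochberg adjustment) and 2.36 in KO (standard error 0.18, adjusted p = 2.81e-05, limma with Benjamini-Hochberg adjustment). Both calls held under every alternative tried. *Prkar1a* was higher by 1.11 in WT (standard error 0.25, adjusted p = 0.0216, limma with Benjamini-Hochberg adjustment) and in KO by 1.01 (standard error 0.19, adjusted p = 0.00386, limma with Benjamini-Hochberg adjustment). Its KO call held under every alternative, and its WT call was lost without WT RNP replicate 1 or 3 or WT polysome replicate 2 (adjusted p from 0.0599 to 0.0768, limma with Benjamini-Hochberg adjustment) and with no intensity trend.

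*Prkacb* was higher in polysomes by 1.64 in KO (standard error 0.42, adjusted p = 0.0177, limma with Benjamini-Hochberg adjustment), a call lost without KO RNP replicate 2 (adjusted p = 0.0599) or KO polysome replicate 2 (adjusted p = 0.0539, limma with Benjamini-Hochberg adjustment, over a range of 0.00422 to 0.0599 for all alternatives) and with no filter, and which a filter at 5 FPKM could not test. In WT the difference was 1.59 and did not pass (95% interval 0.39 to 2.80, adjusted p = 0.0808, limma with Benjamini-Hochberg adjustment), although after quantile normalization it did (adjusted p = 0.0440, over a range of 0.0440 to 0.220 for all alternatives). *Gpr3*, *Pde3a*, *Prkaca*, *Prkar2a* and *Prkar2b* did not pass in either genotype, with log2 differences between -0.25 (*Prkar2a* in KO) and 1.04 (*Prkar2b* in WT, 0.30 without WT RNP replicate 2). Of these, *Prkar2b* in KO passed without KO polysome replicate 1 (adjusted p = 0.0355, limma with Benjamini-Hochberg adjustment, over a range of 0.0355 to 0.651 for all alternatives). Thus 2 of 8 genes were called in WT and 3 of 8 in KO, all higher in polysomes, while 14.7% of 9574 genes were called in WT (7.97% higher and 6.72% lower) and 29.2% of 9851 in KO (15.5% higher and 13.8% lower). Without WT RNP replicate 1, the WT calls over all genes were 519 higher and 264 lower in polysomes. Without WT polysome replicate 2 they were 592 higher and 609 lower. Both comparisons of genotypes and both comparisons of pools use the same 12 libraries, so they are not independent of each other.

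The order of levels differed between groups. In WT polysomes *Gnas* led (95.6 ± 10.4 FPKM), apart from *Prkar1a* (59.0 ± 8.38), which overlapped *Gpr3* (51.6 ± 14.3), and the latter was apart from *Prkar2a* (21.7 ± 8.48, SD, n = 3). *Prkar2a*, *Prkaca*, *Prkar2b* and *Pde3a* followed with overlapping neighbours. In KO polysomes *Gnas* and *Prkar1a* (102 ± 21.4) still led, each apart from the next, and *Gpr3* (22.8 ± 6.16, SD, n = 3) came below *Prkar2a* and *Prkaca*. Ranked against genes whose group mean reached 1 FPKM, *Gpr3* was at percentile 83.4 in WT polysomes and 68.9 in KO polysomes, and at 79.9 and 67.3 in the RNP pool. *Prkar1a* was at percentile 85.2 and 91.0 in polysomes of WT and KO. In WT RNP, where *Gpr3* had the highest mean (41.2 ± 15.7 FPKM, SD, n = 3), every gene from *Gpr3* to *Prkar2b* overlapped its neighbour.

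The genes with patterns most like *Gpr3* over the 12 libraries were *Slc16a10*, *Mrpl57* and *Yipf6*, with a root mean square difference of centred log2 values between 0.26 and 0.29, where the median of 6680 genes was 0.85. Their KO means were below their WT means in both pools, which follows from their choice by likeness to *Gpr3*. *Slc16a10*, for example, was at 20.0 FPKM in WT polysomes and 7.33 in KO polysomes, and at 13.5 and 7.84 in RNP. The genes most like *Pde3a* were *Pold3*, *Clip1* and *Zfml*, with a difference of 0.18 to 0.19 where the median was 0.66. *Pold3* was at 196 FPKM in WT polysomes, 239 in KO polysomes, 147 in WT RNP and 180 in KO RNP.

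The rest of the pathway was described through a list of 92 further symbols in 9 roles. Of these, 56 were tested in polysomes and 9 were called (16.1%, against 10.4% of all genes), 5 higher and 4 lower in the KO. The 9 include *Gja1* and *Pde1c*, which passed the filter through the KO libraries alone and could only be called higher. In WT polysomes, *Wee1* reached 1 FPKM only in replicate 3 and *Akap11* only in replicate 2. Both thus passed the filter only with their KO libraries, and their calls are not counted as support either. The share is therefore not support for a difference from all genes. In RNP 56 were tested and 11 called (19.6%, against 20.7% of all genes), 5 higher and 6 lower, and in the ratio limma called 0 of 60, with 7 at an unadjusted p under 0.05, where 1220 of all 10949 genes had such a p. Their median log2 change was 0.09 in polysomes and -0.01 in RNP. Of the 9 polysome calls, those of *Gnb4* and *Gja4* held with each library left out in turn, and of the 11 RNP calls 8 did (*Rapgef3*, *Atf1*, *Wee1*, *Gja4*, *Prkx*, *Cdc25a*, *Ccnb1* and *Ccnb2*).

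*Gja4*, the connexin 37 gap junction protein through which cGMP reaches the oocyte, was the most abundant gene of the list. It was at 1194, 1102 and 991 FPKM in WT polysomes and 641, 598 and 656 FPKM in KO polysomes, and at 1634, 1677 and 1798 FPKM in WT RNP and 1078, 1164 and 1200 FPKM in KO RNP. Every KO library was below every WT library of its pool, with a log2 change of -0.79 in polysomes (standard error 0.10, adjusted p = 0.00386, limma with Benjamini-Hochberg adjustment) and -0.57 in RNP (standard error 0.07, adjusted p = 0.000572, limma with Benjamini-Hochberg adjustment). Both calls were lost with no intensity trend. *Gja1*, connexin 43, joins granulosa cells to each other. It was listed at 0 in all 3 WT polysome libraries and at 4.91, 10.9 and 6.98 FPKM in KO polysomes, beside the higher values of *Inha* given above, and it is itself 1 of the 18 granulosa markers. It passed the filter through the KO libraries alone, so its call was bound to be upward and is not counted as support.

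Among effectors of cAMP other than PKA, *Rapgef3* (the exchange factor EPAC1) and *Atf1* (a transcription factor that PKA phosphorylates) fell in both pools. *Rapgef3* was at 9.83, 9.85 and 8.56 FPKM in WT RNP and 0.216, 1.90 and 0.502 FPKM in KO RNP, and at 7.61, 5.44 and 9.24 FPKM in WT polysomes and 0.756, 2.28 and 1.29 FPKM in KO polysomes. *Atf1* was at 48.9, 64.4 and 46.7 FPKM in WT RNP and 12.3, 13.2 and 11.8 FPKM in KO RNP, and at 87.8, 30.4 and 37.5 FPKM in WT polysomes and 11.5, 12.95 and 12.1 FPKM in KO polysomes. Neither gene overlapped between genotypes in either pool. The RNP changes were -2.58 for *Rapgef3* (standard error 0.40, adjusted p = 0.00246, limma with Benjamini-Hochberg adjustment) and -2.00 for *Atf1* (standard error 0.19, adjusted p = 0.000196, limma with Benjamini-Hochberg adjustment), and both held under every alternative. The polysome calls were weaker, with that of *Rapgef3* lost without any 1 library other than WT replicate 2 (adjusted p from 0.0763 to 0.125, limma with Benjamini-Hochberg adjustment) and that of *Atf1* lost without any 1 KO library (adjusted p from 0.0556 to 0.0604, limma with Benjamini-Hochberg adjustment). No filter also ended both of these polysome calls, pseudocount 0.1 and a filter at 5 FPKM that of *Rapgef3*, and no intensity trend that of *Atf1*.

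In the role of the list that holds PKA targets and cell cycle genes of the arrest, *Wee1*, a kinase that inhibits CDK1, rose in both pools. It was at 5.05, 4.70 and 3.46 FPKM in WT RNP and 10.5, 13.1 and 16.2 FPKM in KO RNP (log2 change 1.40, standard error 0.29, adjusted p = 0.00919, limma with Benjamini-Hochberg adjustment), and that call held under every alternative. In polysomes it was at 0, 0.957 and 2.65 FPKM in WT and 6.75, 10.8 and 6.57 FPKM in KO, a call lost when any library but WT replicate 3 was left out (adjusted p from 0.0716 to 0.153, limma with Benjamini-Hochberg adjustment), with a pseudocount of 0.1, with either other filter and with no intensity trend. In WT polysomes only replicate 3 reached 1 FPKM, so *Wee1* passed the filter there only with its KO libraries. Its relative in the oocyte, *Wee2*, was not called between genotypes. *Cdc25b*, the phosphatase that activates CDK1 at the resumption of meiosis, was at 70.8, 72.5 and 53.0 FPKM in WT polysomes and 107, 103 and 128 FPKM in KO polysomes, without overlap. That polysome call (log2 change 0.78, standard error 0.18, adjusted p = 0.0308, limma with Benjamini-Hochberg adjustment) was lost without WT replicate 3 or any 1 KO library (adjusted p from 0.0629 to 0.127, limma with Benjamini-Hochberg adjustment), with no filter and with no intensity trend. In RNP *Cdc25b* did not overlap either, at 20.4, 21.1 and 26.0 FPKM in WT and 31.8, 41.9 and 31.3 FPKM in KO. It was not called there (log2 change 0.61, adjusted p = 0.0533, limma with Benjamini-Hochberg adjustment). *Ccnb1* and *Cdc25a* fell in RNP, and *Ccnb2* rose there. *Ccnb1* was at 487, 562 and 564 FPKM in WT RNP and 365, 359 and 356 FPKM in KO RNP, and *Ccnb2* at 31.5, 24.3 and 35.6 FPKM in WT RNP and 61.2, 55.2 and 51.8 FPKM in KO RNP. The cyclin B genes were thus called in opposite directions in this pool, and the call of *Ccnb1* was lost with no intensity trend. In polysomes every KO library was also below every WT library for *Ccnb1* and *Cdc25a*, but neither was called (log2 changes -0.60 and -0.32). *Ccnb2* overlapped there, with the higher mean in the KO, and was not called. None of these genes was called for the ratio, so a difference between pools is not shown.

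Of the G proteins, *Gnb4*, a Gβ subunit, fell in polysomes from 154, 149 and 128 FPKM in WT to 69.8, 81.5 and 71.0 FPKM in KO (log2 change -0.94, standard error 0.15, adjusted p = 0.00834, limma with Benjamini-Hochberg adjustment), against the direction of *Gnas*. This call was lost with no intensity trend. *Gnb1* rose in RNP from 48.1, 47.1 and 72.3 FPKM in WT to 91.5, 110 and 79.3 FPKM in KO, a call lost without WT RNP replicate 1 or 2 or KO RNP replicate 1 or 2 (adjusted p from 0.0623 to 0.100, limma with Benjamini-Hochberg adjustment), with no filter and with no intensity trend. *Gng10* was at 9.35, 0.501 and 0 FPKM in WT RNP and 9.94, 15.5 and 26.7 FPKM in KO RNP, a call of a rise that was lost when any library but WT RNP replicate 1 was left out (adjusted p from 0.0528 to 0.111, limma with Benjamini-Hochberg adjustment), and with a pseudocount of 0.1, no filter or no intensity trend. In WT RNP only replicate 1 of *Gng10* reached 1 FPKM, so it passed the filter there only with its KO libraries. In polysomes *Gng10* was at 6.38, 42.6 and 6.19 FPKM in WT and 10.2, 4.71 and 3.40 FPKM in KO. Its KO mean was the lower one there, with overlap, and it was not called. *Rgs2*, which restrains G protein signals and was the most abundant gene of the role, was not called between genotypes, with WT means of 438 ± 19.9 and 347 ± 37.4 FPKM in RNP and polysomes and KO means of 439 ± 26.3 and 349 ± 17.6 (SD, n = 3). *Prkx*, a kinase related to the PKA catalytic subunits, was at 2.73, 2.74 and 0 FPKM in WT RNP and 13.8, 11.5 and 12.1 FPKM in KO RNP, where it was called higher, a call lost with a pseudocount of 0.1.

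Among phosphodiesterases and anchors, *Pde1c* was at 0.301, 0.572 and 0.985 FPKM in WT polysomes and 3.83, 5.44 and 5.57 FPKM in KO polysomes. It passed the filter through the KO libraries alone, so that a call could only be upward, and the call was lost without WT replicate 1 or 2 (adjusted p of 0.0622 and 0.0537, limma with Benjamini-Hochberg adjustment, over a range of 0.0233 to 0.0672 for all alternatives), with a pseudocount of 0.1 and with no filter, and it could not be tested without any 1 KO library or with a filter at 5 FPKM. *Akap11* was at 0.445, 2.21 and 0 FPKM in WT polysomes and 5.14, 6.04 and 7.36 FPKM in KO polysomes, a call of a rise that was lost when any library but WT replicate 2 was left out (adjusted p from 0.0836 to 0.148, limma with Benjamini-Hochberg adjustment), and with a pseudocount of 0.1, either other filter or no intensity trend. In WT polysomes only replicate 2 of *Akap11* reached 1 FPKM, so it passed the filter there only with its KO libraries. *Akap8l* was at 12.04, 11.4 and 7.72 FPKM in WT RNP and 5.36, 3.84 and 2.35 FPKM in KO RNP, a call of a fall that was lost without WT RNP replicate 1 or 2 or KO RNP replicate 2 or 3 (adjusted p from 0.0663 to 0.101, limma with Benjamini-Hochberg adjustment) and with no filter. In polysomes *Akap8l* did not overlap either, at 9.05, 10.1 and 7.80 FPKM in WT and 2.35, 1.77 and 3.64 FPKM in KO. It was not called there (log2 change -1.50, adjusted p = 0.0532, limma with Benjamini-Hochberg adjustment). No receptor regulator or adenylyl cyclase was called in any comparison.

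Between pools, 13 of 54 list genes were called in WT (24.1%, against 14.7% of all genes), 7 higher and 6 lower in polysomes, and 23 of 57 in KO (40.4%, against 29.2%), 13 higher and 10 lower. The KO count includes *Gja1*, which passed the filter through the polysome libraries alone and could only be called higher. *Gnb4* was at 40.0 to 53.4 FPKM in WT RNP beside its 128 to 154 FPKM in WT polysomes. *Fzr1*, the anaphase-promoting complex activator that keeps cyclin B low, was at 21.8 to 33.7 FPKM in WT RNP and 58.0 to 78.6 FPKM in WT polysomes. *Ccnb1*, *Wee2* and *Gja4* were called lower in polysomes than in RNP in both genotypes. In WT the call of *Ccnb1* was lost without WT RNP replicate 2 or 3 (adjusted p of 0.0521 and 0.0518, limma with Benjamini-Hochberg adjustment, over a range of 0.00452 to 0.152 for all alternatives), that of *Wee2* when any library but WT polysome replicate 3 was left out (adjusted p from 0.0620 to 0.106, limma with Benjamini-Hochberg adjustment), and those of all 3 genes with no intensity trend. In KO the call of *Ccnb1* was lost without any 1 RNP library (adjusted p from 0.0699 to 0.0750, limma with Benjamini-Hochberg adjustment) and with no filter, and those of *Ccnb1* and *Wee2* with no intensity trend. *Pkig*, a PKA inhibitor and the most abundant of its role, was at 128, 136 and 142 FPKM in KO RNP and 53.3, 39.2 and 80.1 FPKM in KO polysomes. That is a difference in log2 of -1.28 (standard error 0.22, adjusted p = 0.00264, limma with Benjamini-Hochberg adjustment), opposite to *Prkar1a* and *Prkacb*. In WT the values of *Pkig* were 89.2, 95.2 and 127 FPKM in RNP and 86.5, 45.8 and 64.1 FPKM in polysomes, and it was not called there.

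**Figure D4:**
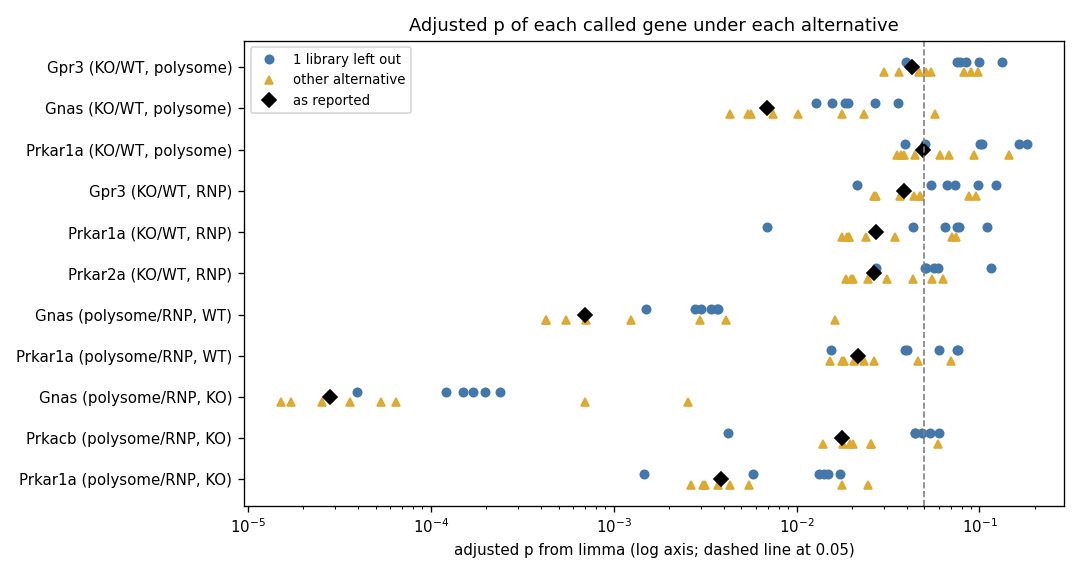
Adjusted p from limma (x axis, log scale) of each called comparison of the 8 tested genes, as reported (diamonds), with 1 library left out (circles) and under the other alternatives (triangles), with a dashed line at 0.05. The 2 pool calls of Gnas and the KO pool call of Prkar1a stay left of the line throughout, the polysome call of Gnas crosses it once, and the genotype calls of Gpr3, Prkar1a and Prkar2a cross it several times.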

How the data were processed

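The authors trimmed paired-end 150 bp reads of Smart-seq2 libraries, aligned them by TopHat2 2.0.13 (mm10), calculated FPKM with Cufflinks 2.2.1 and deposited it per gene symbol and library. Cuffdiff and Cuffnorm are also named in the processing of the samples, and their part in the deposited FPKM was not checked. The annotation release is not given in the sources used here. The 54 deposited columns of the authors' own comparisons hold log2 fold changes, p-values and q-values, and were not used. Groups and replicates follow the sample labels. Linear models were fitted with limma 3.58.1 in R 4.3.3 on log2(FPKM + 1), with an intensity trend, for genes with at least 1 FPKM in at least 3 libraries of a comparison, and Benjamini-Hochberg adjustment over all genes tested. No block was used. Tables used pandas 2.3.3 and numpy 2.4.6 and figures matplotlib 3.10.9, in Python 3.11.15. The depth estimate takes transcript length less 200 bases as the effective length. Positions and 3′ ends came from GENCODE M21 on GRCm38. The members and the lists were chosen with earlier results of these data known. From the wider list, the genes called between genotypes were named. Some of those called between pools, the most abundant gene of some roles and *Adcy9* were named as well. For *Gpr3* and *Pde3a*, the 3 genes averaging 5 FPKM or more with the smallest difference of centred log2 values were named. The alternatives were pseudocounts of 0.1 and 5, no filter, a filter at 5 FPKM, rescaling to 1 median, quantile normalization, no intensity trend, blocks, and each library left out.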

Additional observations from a re-analysis of the deposited data

How the results depend on the processing

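Of the genotype calls, that of *Gnas* in polysomes held in 13 of 14 alternatives, while those of *Gpr3* held in 4 of 14 in polysomes and 7 of 14 in RNP, those of *Prkar1a* in 5 and 8 of 14, and that of *Prkar2a* in RNP in 7 of 14. No called change turned sign. The count of members called, 3 in each pool, was 1 in polysomes with a pseudocount of 0.1 or no filter, and 0 with no intensity trend, and in RNP it was 0 with no filter or no intensity trend. Between pools in WT it was 1 with no intensity trend in place of 2. With each library left out in turn it was 1 to 2 in polysomes, 0 to 2 in RNP, 1 to 2 between pools in WT and 2 to 4 in KO, and 0 throughout for the ratio. The cause was not tested.

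With the replicate number as a block, the members called were 1 in polysomes, 4 in RNP (*Prkaca* added), 0 for the ratio, 2 between pools in WT and 3 in KO. With the block within genotype the ratio gave 0. Of calls described above, those of *Gpr3*, *Prkar1a*, *Rapgef3*, *Cdc25b*, *Wee1*, *Akap11* and *Pde1c* in polysomes, *Gnb1* and *Gng10* in RNP and *Wee2* between pools in WT were not made with the block. The numbers were not taken to pair libraries, since deviations of same-numbered libraries from their group means correlated between -0.0207 and 0.0255 over 12 pairs.

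Some changes that had not passed turned sign. With a pseudocount of 0.1 the ratio change of *Prkacb* was -0.13 in place of 0.05. With each library left out in turn, ratio changes ranged from -0.28 to 0.47 (*Prkacb*), -0.32 to 0.0844 (*Prkar1a*), -1.01 to 0.13 (*Prkar2b*), -0.13 to 0.28 (*Pde3a*) and -0.54 to 0.0362 (*Prkar2a*). Polysome changes between genotypes ranged from -0.11 to 0.54 (*Prkar2b*) and -0.0304 to 0.72 (*Prkacb*), and pool changes from -0.29 to 0.29 (*Prkar2a*, WT), -0.0158 to 0.20 (*Prkaca*, KO) and -0.0511 to 0.33 (*Gpr3*, KO).

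Over all genes, the polysome count of 989 was 545 with no filter, 508 with no intensity trend and 383 to 790 with a library left out. The RNP count of 2057 was 1255 to 1911 with a library left out, the WT pool count of 1406 was 728 with no intensity trend and 780 to 1212 with a library left out, and the ratio count of 26 was 6 with no intensity trend, 11 with the replicate block, 0 with the block within genotype and 0 to 46 with a library left out. Where a library was left out, its group had 2.

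With 3 libraries a group and FPKM in place of counts, counting error could not be modelled for weakly expressed members. *Gpr12* was detected in 4 RNP libraries at levels too low for the filter, and the values of *Adcy3* give no level. FPKM is relative within a pool, so total mRNA per oocyte, the share of molecules on ribosomes, and protein or cAMP levels were not measured.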
